A study of Mus musculus with 12 samples.

Results

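The genes described here are 43 genes of the presynaptic vesicle release machinery, measured by RNA sequencing in the hippocampus of 12 male mice. The rule is a list of gene symbols that uses no measured value, although it was drawn up with earlier results of these data known, and all 43 were found in the count table of 35775 genes and were among the 16163 genes that had enough counts to be tested. In mice made depressive by stress, the counts of most of these genes were higher than in normal mice (34 of 43, with a median log2 fold change of 0.26), and by p-value the first were the endocytic phosphatase Synj1 and the active zone scaffolds Pclo, Bsn and Erc2. None of the 43 passed an adjusted p of 0.05 with edgeR, the main test, where 0.495% of all genes did. DESeq2 called 8 of them and 7.9% of all genes, and the change of Pclo was 0.20 once a trend with transcript length was removed. With edgeR 1 member passed in any comparison: Ppfia2, an active zone scaffold, fell in the offspring of depressed fathers relative to the stressed mice, where 2.88% of all genes passed. That call was lost in 6 of 12 fits that left out 1 library. DESeq2 and voom called 10 and 19 members there, where they called 9.48% and 29.1% of all genes.

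The study used C57BL/6 mice aged 8 weeks in 4 groups of 3 males. F0_Ctl are normal mice, F0_Dep are mice with stress-induced depression, F1_Ctl are offspring of normal fathers and F1_Dep are offspring of stress-depressed fathers. All groups share strain, age, sex and tissue. The design text says that the mice of a group are independent animals. The sources used here do not give the stress procedure, the mothers, or which offspring share a father or a litter, and no label says that the offspring were stressed themselves.

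A nerve terminal releases transmitter when vesicles loaded with it are docked at the active zone, primed, and fused with the membrane as calcium enters. Fusion is driven by SNARE proteins on the vesicle and the target membrane, is triggered by calcium sensors of the synaptotagmin family and is clamped and promoted by complexins, while large scaffolds hold vesicles and calcium channels together. The emptied membrane is then taken up again by endocytosis, and the hippocampus, whose principal neurons release glutamate, holds these proteins in abundance.

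Library totals ran from 18277208 to 23083678 counts. All statements on counts use CPM, a count relative to the library total, scaled by edgeR's TMM factors, and a change is a log2 fold change fitted by edgeR ± its standard error. Several libraries stood apart, some of them within their own group. Other differences ran with a whole group and cannot be told apart from it. Choroid plexus markers (14 genes) were high in F0_Ctl 3, in F1_Ctl 3 and in all 3 F1_Dep libraries and lowest in F0_Ctl 1, F0_Ctl 2 and F0_Dep 3. Clic6 and Cldn2 of that list are listed at 0 in F0_Ctl 1. The median of the list, in log2 CPM centred on its mean over the libraries, was 2.81 in F0_Ctl 3, 3.93 in F1_Ctl 3, and -3.38 and -3.90 in F0_Ctl 1 and F0_Ctl 2. In replicate order it was -1.43, -0.59 and -3.14 in F0_Dep and 1.60, 2.96 and 2.86 in F1_Dep, and it was -1.54 in F1_Ctl 1 and 0.02 in F1_Ctl 2. Striatal markers (11 genes) stood at 2.48 in F1_Dep 1 and at -0.75 to 0.44 in the other 11 libraries. The median of 10 general neuron markers ran from -0.15 to 0.16, and all 10 were present in every library, though single genes varied more, such as Snhg11 from 719 to 2229 CPM. Mitochondrial transcripts took 5.09 to 5.32% of counts in F0_Dep and 6.70 to 10.9% in the other groups. Lane names stand in the labels of F1_Ctl alone, so that any difference in sequencing cannot be told apart from that group. In bulk tissue, fewer cells of a type and less RNA per cell cannot be told apart either.

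The promoters of 4 active zone genes are shown because their transcripts had the widest differences among the scaffolds between the F0 groups (Bsn, Pclo, Erc2) or passed the test (Ppfia2). Each is the stretch of 250 bases before a RefSeq transcription start in build GRCm38.p6, printed 5′ to 3′ on the gene's strand, with every CG dinucleotide in capitals. The Bsn window lies at chr9:108190384-108190633 on the minus strand, the Pclo window at chr5:14514668-14514917 on the plus strand, the Erc2 window at chr14:27622157-27622406 on the plus strand, and the Ppfia2 window at chr10:106470060-106470309 on the plus strand. The start used for Ppfia2 lies 3372 nt inside the gene as GENCODE annotates it, and those of Bsn, Pclo and Erc2 lie within 20 nt of the annotated gene start.
Bsn: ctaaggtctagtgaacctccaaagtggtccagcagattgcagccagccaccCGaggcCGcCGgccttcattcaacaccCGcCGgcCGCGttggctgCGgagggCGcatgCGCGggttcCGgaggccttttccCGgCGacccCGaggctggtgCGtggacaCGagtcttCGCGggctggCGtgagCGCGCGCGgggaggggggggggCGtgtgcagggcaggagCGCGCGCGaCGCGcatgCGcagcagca
Pclo: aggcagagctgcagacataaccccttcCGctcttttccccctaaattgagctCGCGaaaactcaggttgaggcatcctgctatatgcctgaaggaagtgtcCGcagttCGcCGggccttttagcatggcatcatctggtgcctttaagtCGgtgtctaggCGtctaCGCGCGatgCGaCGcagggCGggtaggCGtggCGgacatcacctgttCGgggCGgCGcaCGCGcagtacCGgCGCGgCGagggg
Erc2: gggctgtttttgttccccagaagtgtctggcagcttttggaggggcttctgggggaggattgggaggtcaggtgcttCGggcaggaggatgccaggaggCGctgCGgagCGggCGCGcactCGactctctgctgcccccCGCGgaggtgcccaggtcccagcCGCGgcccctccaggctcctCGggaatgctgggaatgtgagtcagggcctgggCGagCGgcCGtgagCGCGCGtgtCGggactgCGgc
Ppfia2: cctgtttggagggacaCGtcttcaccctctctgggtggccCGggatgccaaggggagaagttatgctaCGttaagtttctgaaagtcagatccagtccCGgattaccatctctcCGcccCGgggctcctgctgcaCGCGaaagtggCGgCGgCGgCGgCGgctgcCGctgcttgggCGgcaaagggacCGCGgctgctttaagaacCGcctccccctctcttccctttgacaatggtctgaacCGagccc
These windows held 32, 25, 20 and 19 CG dinucleotides in the order printed. RefSeq starts were found for 33 of the 43 genes, and for 7 of them the nearest start lay more than 500 nt from the annotated gene start. Over those 33 windows the median was 16 CG dinucleotides and 61.2% G and C, against 6 and 52.4% over all 32851 RefSeq starts in the table. The GC box letters GGGCGG, searched on both strands, were present in 24 of the 33 windows (72.7%) and in 32.7% of all windows; Pclo and Ppfia2 held 2 matches each, and Bsn and Erc2 held none. The TATA letters TATAAA were present in 2 of 33 (6.1%) against 12.4% of all windows, the letters TGACG of the cyclic AMP response element core in 7 of 33 (21.2%) against 17.8%, and the E-box letters CACGTG in 2 of 33 (6.1%) against 6.0%. Each member was counted at the start nearest its annotated gene start, while the background holds all starts of the table. These sets were not matched for gene type, expression or G and C content. A difference in share between them is therefore not shown to be a trait of the members. A match describes the letters and is not evidence of binding, and CG content was not compared with any change in expression.

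Levels between genes can be compared by FPKM, which the authors gave for 9 libraries (F0_Ctl, F0_Dep and F1_Dep); F1_Ctl was not compared by FPKM here. The genes span a wide range. Snap25, the plasma membrane SNARE, had the highest mean at 912 FPKM, and Unc13c, a priming factor, the lowest at 1.17 FPKM. Of the 43 genes, 13 had a mean above 100 FPKM and 8 a mean under 10 FPKM. The highest of each role after Snap25 were the vesicular glutamate transporter Slc17a7 (469 FPKM), the vesicle membrane protein Syp (376 FPKM), the endocytic GTPase Dnm1 (372 FPKM), the calcium sensor Syt1 (339 FPKM) and the priming factor Unc13a (56.0 FPKM). Active zone scaffolds were therefore measured at levels well under those of the abundant vesicle and SNARE proteins: Bsn had a mean of 44.9 FPKM, Pclo of 31.1 FPKM and Ppfia2 of 27.0 FPKM.

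**Figure D1:**
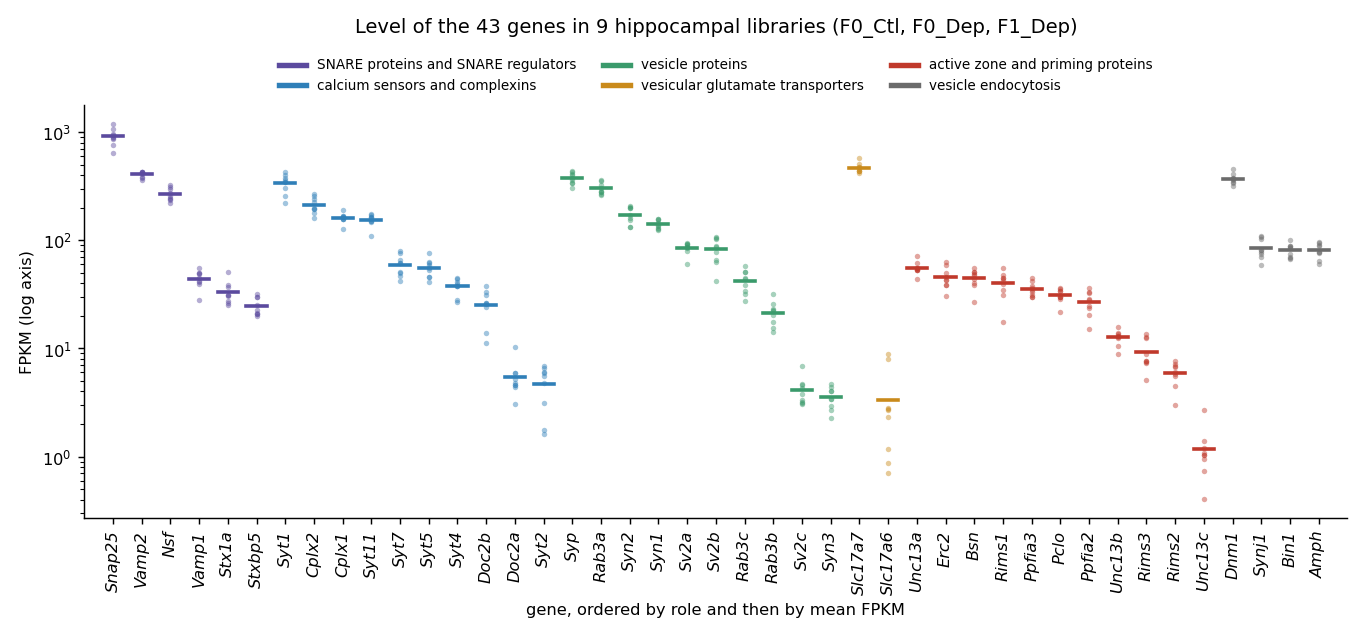
FPKM of each of the 43 genes on a log axis; points are the 9 libraries with FPKM values, bars their mean, and colours the 6 roles. Snap25 is highest at 912 FPKM and Unc13c lowest at 1.17 FPKM, and Slc17a6 and Unc13c show the widest scatter between libraries on this axis.

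Between stressed and normal F0 mice, the question is whether depression-inducing stress goes with another level of the release machinery. The members' own level, taken as the median over the 43 genes of centred log2 CPM, was 0.11, 0.18 and 0.15 in F0_Dep and -0.24, -0.07 and -0.04 in F0_Ctl. All 3 stressed mice thus lay above all 3 normal mice, and close together. Of the 43 genes, 34 were higher in F0_Dep, with a median log2 fold change of 0.26; over all genes tested 45.4% were higher, with a median of -0.03. No member was called at an adjusted p under 0.05 (0.495% of all genes were). At an unadjusted p under 0.05 there were 20 members, 19 of them higher, where 19.7% of all genes passed. By role, 10 of 11 active zone genes were higher (median 0.38), 3 of 4 endocytic genes (0.33) and 8 of 10 in the role of calcium sensors and complexins (0.25). So were 7 of 10 vesicle proteins (0.24), 5 of 6 SNARE genes (0.22) and 1 of 2 vesicular glutamate transporters (0.11). The role of calcium sensors and complexins holds all listed synaptotagmin, Doc2 and complexin genes. Whether each of them, such as Syt4 and Syt11, senses calcium was not considered. A further fit left out F0_Ctl 3 and F1_Ctl 3, highest of their groups in choroid plexus markers, and F1_Dep 1, high in striatal markers. F1_Dep 2 and F1_Dep 3, at 2.96 and 2.86 in choroid plexus markers, were kept. In that fit the members' median was 0.31, and 13 of 43 members and 512 of all genes passed the adjusted p. Bsn, Pclo and Synj1 were among these members. Without F1_Ctl 3 alone, 4 members passed (Synj1, Pclo, Bsn and Erc2) with 477 of all genes. That library is in neither compared group and enters through the gene filter, the scaling and the estimate of spread, which all groups share. Without F1_Ctl 1 alone 3 members and 369 of all genes passed, and without F0_Ctl 2 alone 2 members and 373 of all genes.

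Markers of other cells moved between the same groups. General neuron markers were higher in F0_Dep for 6 of 10 genes, with a median log2 fold change of 0.08, and markers of CA pyramidal cells for 9 of 12, with a median of 0.26 and levels of -0.83, -0.52 and 0.50 in F0_Ctl and 0.08, 0.30 and 0.33 in F0_Dep. Oligodendrocyte markers were higher in 1 of 10 (median -0.51), with levels of -0.87, -0.10 and 0.49 in F0_Ctl and -0.62, -0.45 and -0.63 in F0_Dep. Endothelial and pericyte markers were higher in 1 of 10 (median -0.38), and 2 of them were called lower. The part of these cells in the members' values was not tested.

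Between the offspring groups, the level of the 43 genes was 0.05, -0.03 and 0.04 in F1_Dep and 0.05, 0.08 and -0.25 in F1_Ctl, so the groups overlapped and F1_Ctl 3 was low. Of the members, 24 were higher in F1_Dep, with a median log2 fold change of 0.08. None was called (0.167% of all genes were), and 6 had an unadjusted p under 0.05, near the background of 14.8%. Without F0_Ctl 3, F1_Ctl 3 and F1_Dep 1, the median turned to -0.11 and 1 member, Cplx2, passed (log2 fold change -0.45, adjusted p = 0.0415), where 338 of all genes passed. Offspring of depressed fathers against normal F0 mice gave 30 members higher and a median of 0.09, no call (0% of all genes were called) and 9 members at an unadjusted p under 0.05 against 12.9% of all genes. Normal offspring against normal F0 mice gave 27 members higher and a median of 0.03, no call (0% of all genes), and 1 member, Erc2, at an unadjusted p under 0.05 against 5.92% of all genes. Without the libraries named above, that median was 0.23.

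Offspring of depressed fathers against stressed F0 mice is the comparison with most calls over all genes. Of the members, 15 were higher and 28 lower, with a median log2 fold change of -0.12. One member, Ppfia2, was called, a share near the 2.88% of all genes called. At an unadjusted p under 0.05 there were 15 members, 11 of them lower, against 22.3% of all genes. By FPKM the median was -0.06. This comparison shares the F0_Dep libraries with the F0 comparison, so genes high in F0_Dep enter both. The difference between the offspring change and the F0 change was tested as an interaction: 29 of 43 members had a more negative log2 fold change in the offspring than in F0 (median of the difference -0.17), none was called (0.0681% of all genes were), and 15 had an unadjusted p under 0.05, 13 of them lower, against 13.4% of all genes. The median of the interaction was -0.05 without F1_Ctl 2 alone. Without F0_Ctl 3, F1_Ctl 3 and F1_Dep 1 it was -0.34 and 10 members passed, where 487 of all genes passed; in the comparison of F1_Dep with F0_Dep 8 members and 1347 of all genes passed. Leaving out F1_Ctl 3 alone, 8 members and 1154 of all genes passed between F1_Dep and F0_Dep, and 3 members and 126 of all genes in the interaction.

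**Figure D2:**
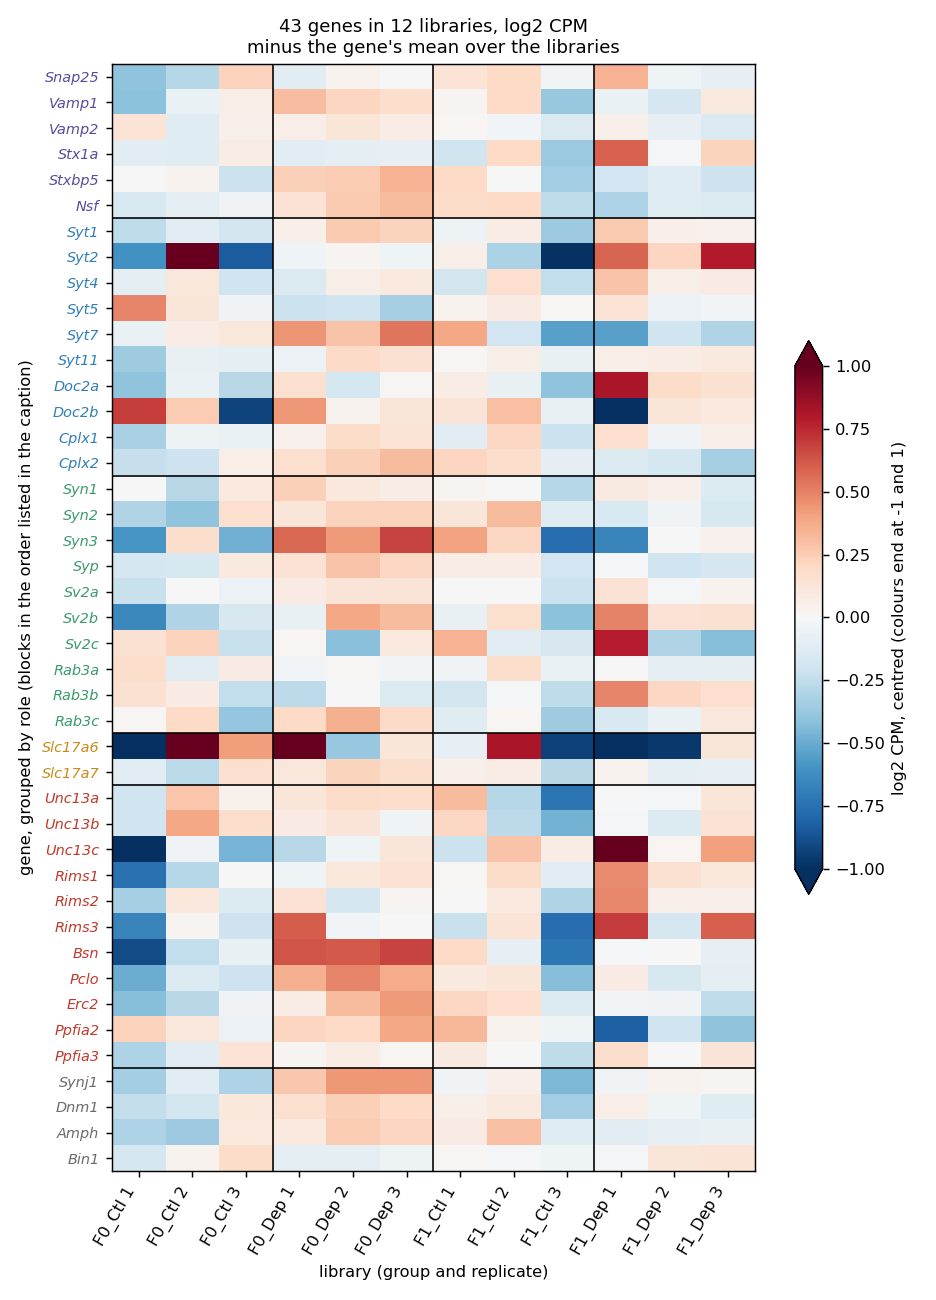
Log2 CPM of the 43 genes in the 12 libraries, each minus the gene's mean over the libraries (red higher, blue lower). Rows run by role: SNARE proteins and regulators, calcium sensors and complexins, vesicle proteins, glutamate transporters, active zone and priming proteins, and endocytosis. The F0_Dep columns are mostly red, F0_Ctl 1 and F1_Ctl 3 mostly blue (median levels -0.24 and -0.25), and a few genes such as Doc2b, Syt2, Slc17a6 and Unc13c depend on single libraries.

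Among the SNARE proteins and their regulators, 3 of 6 genes had an unadjusted p under 0.05 between the F0 groups (19.7% of all genes did), all higher in F0_Dep: Vamp1, a vesicle SNARE, by 0.36, Nsf, the ATPase that takes spent SNARE complexes apart, by 0.34, and Stxbp5 (tomosyn), an inhibitor of SNARE assembly, by 0.33 on the log2 scale. Their adjusted p-values from edgeR were 0.225, 0.165 and 0.173. Snap25, the most abundant, was at 1565, 1694 and 2428 CPM in F0_Ctl, 1908, 2118 and 2074 CPM in F0_Dep, 2267, 2367 and 2026 CPM in F1_Ctl and 2636, 2006 and 1953 CPM in F1_Dep. All 4 groups overlapped, and the normal F0 mice spanned the range of the stressed ones (log2 fold change 0.10 ± 0.17, adjusted p = 0.773). Vamp2, the main vesicle SNARE of the forebrain, and Stx1a, its plasma membrane partner, differed by 0.06 and -0.04 between the F0 groups. In the offspring comparison Stx1a was 0.39 ± 0.16 higher in F1_Dep (adjusted p = 0.275), with its highest value, 105 CPM, in F1_Dep 1. For Nsf and Stxbp5, F1_Dep and F0_Dep did not overlap, with changes of -0.43 and -0.45 and adjusted p-values of 0.0711 and 0.0650.

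Among calcium sensors and complexins, Syt1, the main sensor for fast release, was at 1239, 1361 and 1298 CPM in F0_Ctl and 1531, 1774 and 1718 CPM in F0_Dep. In the offspring it was at 1425, 1552 and 1149.5 CPM in F1_Ctl and 1772, 1531 and 1517 CPM in F1_Dep. The F0 groups did not overlap and the offspring groups did; the F0 change was 0.37 ± 0.12 (adjusted p = 0.138) and the offspring change 0.22 ± 0.12 (adjusted p = 0.415). Cplx2, the complexin of principal neurons, showed opposite directions in the 2 generations. Its level was 1158, 1176 and 1426 CPM in F0_Ctl and 1523, 1608 and 1695 CPM in F0_Dep, and 1580.1, 1537 and 1276 CPM in F1_Ctl and 1228, 1206 and 1078 CPM in F1_Dep. Stressed mice were all above normal mice, and offspring of depressed fathers all below offspring of normal fathers. The F0 change was 0.36 ± 0.12 (adjusted p = 0.131), the offspring change -0.32 ± 0.12 (adjusted p = 0.229), and the interaction, -0.68 ± 0.16, had the smallest p of all members (adjusted p = 0.123). Between F1_Dep and F0_Dep the change was -0.46 ± 0.12 (adjusted p = 0.0536). Leaving out F0_Ctl 3 took the interaction past the threshold, to -0.80 (adjusted p = 0.0413), as did leaving out F1_Ctl 3, to -0.77 (adjusted p = 0.0487). In these fits 184 and 126 of all genes passed. It passed in 2 of 12 omissions of 1 library, with adjusted p up to 0.343, and in 6 of all 21 alternatives. With edgeR its adjusted p was 0.199 with the replicate number as a block and 0.108 with the length trend removed.

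Syt7, a sensor for slow release and vesicle replenishment, was at 425, 468 and 482 CPM in F0_Ctl, 606, 543 and 644 CPM in F0_Dep, 581, 390.5 and 305 CPM in F1_Ctl and 305, 388 and 361 CPM in F1_Dep. The stressed mice were highest, apart from F1_Ctl 1, and the F1_Dep mice lay below both F0 groups, while F1_Ctl was spread over the whole range. The change between F1_Dep and F0_Dep was -0.77 ± 0.19 (adjusted p = 0.0515). Syt5 was the 1 member with an unadjusted p under 0.05 that was lower in F0_Dep, at -0.46 ± 0.12 (adjusted p = 0.0842), and it has the second shortest transcript of the members, 1750 nt. Its values were 144, 112 and 100.4 CPM in F0_Ctl and 88.5, 89.4 and 81.6 CPM in F0_Dep. Cplx1 and Syt11 were higher in F0_Dep by 0.26 and 0.27 at unadjusted p-values of 0.0461 and 0.0200. Doc2b, a sensor linked to spontaneous release, had 2 outlying libraries, with 67.4 CPM in F0_Ctl 3 and 56.4 CPM in F1_Dep 1 against 122 to 207 CPM in the other 10. Syt2, the sensor of hindbrain and some inhibitory terminals, reached 41.5 CPM in F0_Ctl 2 and lay between 9.43 and 32.5 CPM elsewhere. With edgeR on all 4 groups no change of Doc2a, Doc2b, Syt2 or Syt4 passed in any of the 6 comparisons; Syt4 passed between the F0 groups by limma on log2(FPKM + 1), and Syt2 between F1_Dep and F0_Dep with those groups fitted alone.

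Among vesicle proteins, 5 of 10 had an unadjusted p under 0.05 between the F0 groups, against 19.7% of all genes, all higher in F0_Dep: Sv2a and Sv2b, members of the SV2 family of vesicle glycoproteins, Syn2 and Syn3, synapsins that tether vesicles in the reserve pool, and Syp, synaptophysin. Syp was at 825, 832 and 993 CPM in F0_Ctl, 1028, 1131 and 1070.5 CPM in F0_Dep, 979, 976 and 814 CPM in F1_Ctl and 919, 810.1 and 827 CPM in F1_Dep. The stressed mice lay above all others, by 0.29 ± 0.11 over normal F0 mice (adjusted p = 0.182), and F1_Dep lay 0.34 ± 0.11 under F0_Dep (adjusted p = 0.103). Sv2b was at 262, 332 and 366 CPM in F0_Ctl, 387, 534 and 508 CPM in F0_Dep, 388, 456 and 307 CPM in F1_Ctl and 575, 452 and 455 CPM in F1_Dep. F0_Dep and F1_Dep both lay above F0_Ctl without overlap, by 0.57 ± 0.18 for F0_Dep (adjusted p = 0.120) and by 0.63 ± 0.18 for F1_Dep (adjusted p = 0.183), and these comparisons share the F0_Ctl libraries. Syn3, the least abundant synapsin at 3.55 FPKM, was 0.82 ± 0.30 higher in F0_Dep (adjusted p = 0.165).

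The Rab3 GTPases mark vesicles for docking, and their members did not go the same way. Rab3b was at 36.6, 34.9 and 27.9 CPM in F0_Ctl, 27.5, 33.1 and 29.9 CPM in F0_Dep, 29.0, 32.5 and 27.7 CPM in F1_Ctl and 46.2, 38.0 and 37.1 CPM in F1_Dep. The F1_Dep mice were the highest 3 of the 12, with a change of 0.44 ± 0.13 over F1_Ctl (adjusted p = 0.148). Without F0_Ctl 3, F1_Ctl 3 and F1_Dep 1 it was 0.28 (adjusted p = 0.280), a smaller value by more than 1.5 times. Rab3a, the most abundant at 302 FPKM, differed by -0.07 ± 0.10 between the F0 groups and by -0.09 ± 0.10 between the offspring groups, and Rab3c by 0.29 and 0.11. Sv2c, the SV2 form of the basal ganglia, was at 63.4 CPM in F1_Dep 1 and at 27.5 to 46.8 CPM in the other 11 libraries; F1_Dep 1 is the library with high striatal markers, and the part of these in the result was not tested.

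The vesicular glutamate transporters load glutamate into vesicles: Slc17a7 (VGLUT1) in cortical and hippocampal principal neurons and Slc17a6 (VGLUT2) mainly in subcortical ones. Slc17a7 was at 1171, 1042 and 1404 CPM in F0_Ctl, 1361, 1471 and 1423 CPM in F0_Dep, 1303, 1323 and 1038 CPM in F1_Ctl and 1287, 1181 and 1192 CPM in F1_Dep. The F0 groups overlapped through F0_Ctl 3, with a change of 0.23 ± 0.13 (adjusted p = 0.328), and the offspring groups had equal means of 1221 and 1220.0 CPM within their spread. Slc17a6 varied widely between mice of the same group, from 3.41 to 33.6 CPM in F0_Ctl, 7.04 to 31.9 CPM in F0_Dep, 4.79 to 16.1 CPM in F1_Ctl and 3.60 to 9.99 CPM in F1_Dep, and no difference was larger than that spread. Thalamic and habenular markers (11 genes) also varied, from -0.91 to 1.08 in F0_Ctl and from -0.07 to 0.996 in F0_Dep, and their part in the scatter of Slc17a6 was not tested.

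Between the F0 groups the widest change of any member was that of an active zone protein. Bsn (bassoon, chromosome 9, 108096021 to 108190384, minus strand, GRCm38) is one of the giant scaffolds that gather vesicles at the active zone. It was at 252, 395 and 445 CPM in F0_Ctl, 726, 716 and 748 CPM in F0_Dep, 539.6, 444 and 284 CPM in F1_Ctl and 464, 469.9 and 443 CPM in F1_Dep. The stressed mice, at 730.0 ± 16.1 CPM (mean ± SD, n = 3), lay close together and above every other mouse, while the normal F0 mice were spread over 364 ± 99.9 CPM. The F0 change was 1.004 ± 0.22 (adjusted p = 0.0587) and the offspring change 0.12 ± 0.22 (adjusted p = 0.860). By FPKM the same comparison was less wide: 26.7, 38.8 and 51.3 FPKM in F0_Ctl overlapped 55.7, 49.1 and 51.0 FPKM in F0_Dep, and limma on log2(FPKM + 1) gave 0.45 (adjusted p = 0.123).

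Pclo (piccolo, chromosome 5, 14514917 to 14863459, plus strand), the second giant scaffold, was at 235, 301 and 287 CPM in F0_Ctl, 425, 465 and 429 CPM in F0_Dep, 355, 361 and 247 CPM in F1_Ctl and 350.2, 297 and 309 CPM in F1_Dep. The 3 stressed mice were again the highest of all, by 0.68 ± 0.14 over normal F0 mice (adjusted p = 0.0565). Erc2 (chromosome 14, 27622427 to 28478537, plus strand), which binds both scaffolds and the RIM proteins, was at 159, 176 and 208 CPM in F0_Ctl, 224, 266 and 286 CPM in F0_Dep, 246, 239.7 and 194 CPM in F1_Ctl and 209, 208 and 179 CPM in F1_Dep. It was 0.52 ± 0.13 higher in F0_Dep than in F0_Ctl (adjusted p = 0.0836), -0.19 ± 0.13 in the offspring (adjusted p = 0.550) and 0.33 ± 0.13 in normal offspring over normal F0 mice (adjusted p = 0.750), and its interaction was -0.71 ± 0.19 (adjusted p = 0.148).

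Ppfia2 (liprin-alpha-2, chromosome 10, 106466938 to 106933467, plus strand), a scaffold that brings vesicles and channels to the active zone, behaved differently. It was at 264, 244 and 217 CPM in F0_Ctl, 261, 259 and 295 CPM in F0_Dep, 283, 231 and 219 CPM in F1_Ctl and 128, 197 and 171 CPM in F1_Dep. The 3 offspring of depressed fathers were the lowest of the 12 mice, and the other 3 groups overlapped. It fell by 0.72 ± 0.15 on the log2 scale in F1_Dep relative to F0_Dep (adjusted p = 0.0369), and was lower by -0.57 ± 0.15 than in F1_Ctl (adjusted p = 0.127) and by -0.55 ± 0.15 than in F0_Ctl (adjusted p = 0.174). By FPKM it was 32.8, 33.0 and 36.4 FPKM in F0_Dep and 15.2, 23.5 and 20.4 FPKM in F1_Dep. The call was lost in 6 of 12 fits that left out 1 library, namely each F0_Dep library, F1_Ctl 2, F1_Dep 1 and F1_Dep 3, with adjusted p up to 0.163, and the change without F1_Dep 1 alone was -0.56; without F0_Ctl 3, F1_Ctl 3 and F1_Dep 1 together it stood at -0.57 (adjusted p = 0.0162).

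Markers of dentate granule cells moved with the same libraries. Their list of 10 tested genes had 0 of 10 higher in F1_Dep than in F0_Dep and 2 of 10 called lower, and its level was -1.95, -0.27 and -0.79 in F1_Dep against 0.19 to 0.61 in F0_Dep, 0.32 to 0.62 in F1_Ctl and 0.08 to 0.55 in F0_Ctl. Within F1_Dep, both Ppfia2 and the granule cell list were lowest in F1_Dep 1 and highest in F1_Dep 2. Striatal markers were high in F1_Dep 1 as given above. Between F1_Dep and F0_Dep, choroid plexus markers were higher in 14 of 14 genes (median log2 fold change 4.04, none called) and oligodendrocyte markers in 10 of 10 (median 1.05, 2 called). The part of any of these lists in the result for Ppfia2 was not tested.

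Among the remaining active zone genes, Rims1, a RIM protein that links vesicles to calcium channels, was at 60.2, 83.1 and 102 CPM in F0_Ctl, 98.1, 109 and 112 CPM in F0_Dep, 102, 115 and 93.4 CPM in F1_Ctl and 140.4, 112 and 109 CPM in F1_Dep. Normal F0 mice held the 2 lowest values, and F1_Dep lay above F0_Ctl without overlap by 0.56 ± 0.17 (adjusted p = 0.199; 0.63 and 0.0450 without F0_Ctl 3, F1_Ctl 3 and F1_Dep 1). Unc13a (Munc13-1), the main priming factor, was at 402, 559.5 and 475 CPM in F0_Ctl, 501, 523 and 519.7 CPM in F0_Dep, 574, 379 and 277 CPM in F1_Ctl and 459.6, 458 and 503 CPM in F1_Dep. Its changes were 0.10 ± 0.21 between the F0 groups and 0.21 ± 0.21 between the offspring groups, within the spread. Unc13c (Munc13-3), a form best known from the cerebellum, was at 4.73, 10.9 and 8.08 CPM in F0_Ctl, 9.18, 10.8 and 12.1 CPM in F0_Dep, 9.58, 13.6 and 11.7 CPM in F1_Ctl and 28.6, 11.3 and 14.8 CPM in F1_Dep. F1_Dep 1 alone stood far above the rest, and the change of 1.20 ± 0.34 over F0_Ctl (adjusted p = 0.184) was 0.74 without F0_Ctl 3, F1_Ctl 3 and F1_Dep 1. Unc13b, Rims2 and Ppfia3 differed by -0.08, 0.11 and 0.12 between the F0 groups. Rims3 differed by 0.47 ± 0.28 between the F0 groups, by 0.66 ± 0.28 between the offspring groups (adjusted p = 0.294) and by 0.68 ± 0.28 for F1_Dep against F0_Ctl (adjusted p = 0.342), with 80.9, 44.4 and 75.6 CPM in F1_Dep. Without F0_Ctl 3, F1_Ctl 3 and F1_Dep 1, the offspring change of Rims3 was 0.30.

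Among the endocytic genes, Synj1 (synaptojanin 1, chromosome 16, 90936091 to 91044543, minus strand), the lipid phosphatase that strips the coat from new vesicles, had the smallest p of all members between the F0 groups. It was at 355, 418 and 363 CPM in F0_Ctl, 542, 608 and 607 CPM in F0_Dep, 437, 466 and 329 CPM in F1_Ctl and 438, 459.9 and 458 CPM in F1_Dep. All 3 stressed mice lay above the other 9, by 0.63 ± 0.12 over normal F0 mice (adjusted p = 0.0512). FPKM values gave the same size, 0.64, and passed there (limma on log2(FPKM + 1), adjusted p = 0.0134), where 19.2% of all genes passed. Synj1 passed in 12 of 25 alternatives. With edgeR its adjusted p was 0.0757 with the length trend removed and 0.0730 with the replicate number as a block. Dnm1 (dynamin 1), which pinches vesicles off, was at 1071, 1111 and 1356 CPM in F0_Ctl, 1408, 1490.2 and 1447 CPM in F0_Dep, 1315, 1348 and 991 CPM in F1_Ctl and 1322, 1226 and 1161 CPM in F1_Dep. It was 0.30 ± 0.13 higher in F0_Dep (adjusted p = 0.238) without overlap, whereas its FPKM means were equal within the spread, at 373 ± 71.4 FPKM in F0_Ctl and 373 ± 6.64 FPKM in F0_Dep (SD, n = 3 each). Amph (amphiphysin), an adaptor that recruits dynamin, was at 206, 198 and 272 CPM in F0_Ctl, 272, 304 and 296 CPM in F0_Dep, 269.9, 313 and 234 CPM in F1_Ctl and 236, 241 and 242 CPM in F1_Dep. The F0 groups met at 272 CPM, with a change of 0.37 ± 0.13 (adjusted p = 0.160). Bin1, the second amphiphysin, differed by -0.10 ± 0.09.

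**Figure D3:**
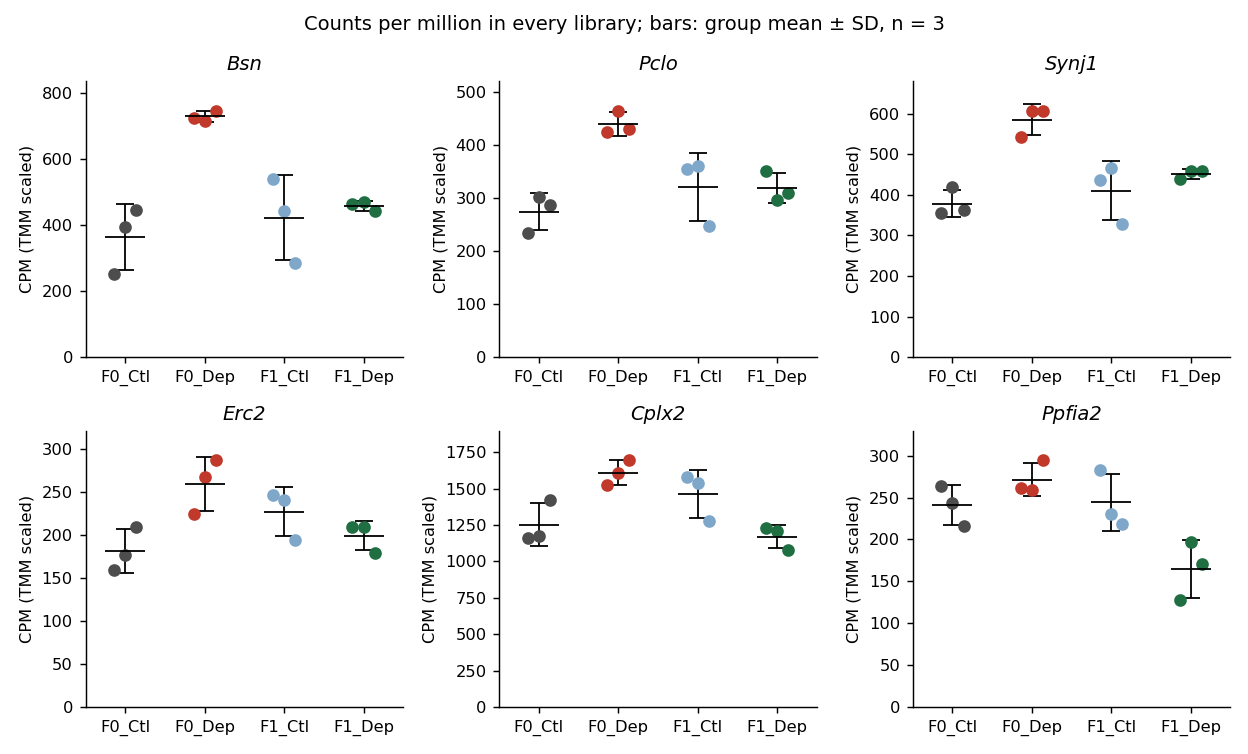
CPM of 6 genes in every library, by group; points are mice, horizontal bars and whiskers the mean ± SD of 3. The F0_Dep points of Bsn, Pclo and Synj1 lie above all others, and the F1_Dep points of Ppfia2, at 128 to 197 CPM, lie below all others.

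**Figure D4:**
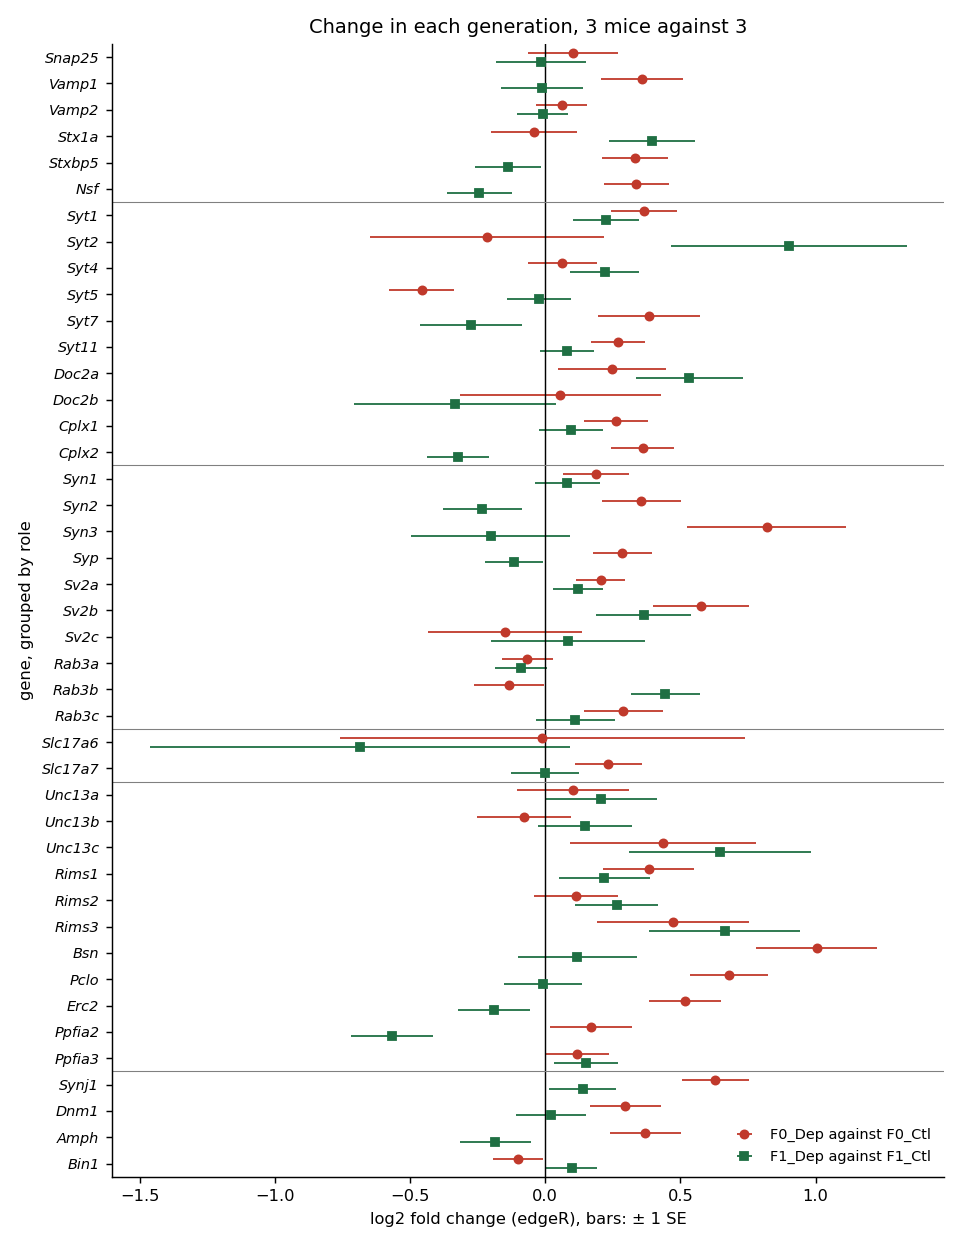
Log2 fold change of each of the 43 genes ± 1 standard error, for stressed against normal F0 mice (circles) and for offspring of depressed against offspring of normal fathers (squares). In the F0 comparison 34 genes lie right of 0, with Bsn at 1.004, and in the offspring comparison 24 do, with Ppfia2 at -0.57.

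The F0 change went with transcript length over the whole transcriptome. Length was taken as the longest transcript in GENCODE release 21 (vM21). Among all genes tested, 23.9% of those up to 2000 nt were higher in F0_Dep (median log2 fold change -0.21), 37.7% of those above 2000 and up to 4000 nt (-0.07), 62.4% of those above 4000 and up to 8000 nt (0.08) and 84.0% of those over 8000 nt (0.29). The members are long: 28 of 43 exceed 4000 nt, with Bsn at 15938 nt and Pclo at 20084 nt. In the same ranges 0 of 2, 10 of 13, 17 of 19 and 7 of 9 members were higher, with medians of -0.26, 0.23, 0.36 and 0.29, so that the median of the members was above that of all genes in both ranges between 2000 and 8000 nt and equal to it over 8000 nt. Spearman's rho of change with length was 0.39 over 15964 genes and 0.38 over the 43 members, as a description across genes, which share their libraries. Mice of 1 group differed in this relation too: rho of centred log2 CPM with length was -0.31, 0.21 and -0.22 in F0_Ctl and 0.23, 0.33 and 0.37 in F0_Dep. It was 0.11, -0.23 and -0.32 in F1_Ctl and -0.01, 0.02 and 0.02 in F1_Dep.

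With the length trend taken out of every library, a check chosen after seeing the data, the members' median change between the F0 groups was 0.20, and 34 members were higher, 32 of them among the 34 of the main test; Ppfia2 and Unc13a turned lower and Stx1a and Rab3a higher. The change of Pclo was then 0.20 (adjusted p = 0.327), that of Bsn 0.59 (adjusted p = 0.144), and that of Synj1 0.45 (adjusted p = 0.0757). The fall of Ppfia2 between F1_Dep and F0_Dep was then -0.52 (adjusted p = 0.0772). The median without F0_Ctl 1 and F1_Ctl 3, whose levels fell most with length, was 0.23, and 3 members and 199 of all genes passed.

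**Figure D5:**
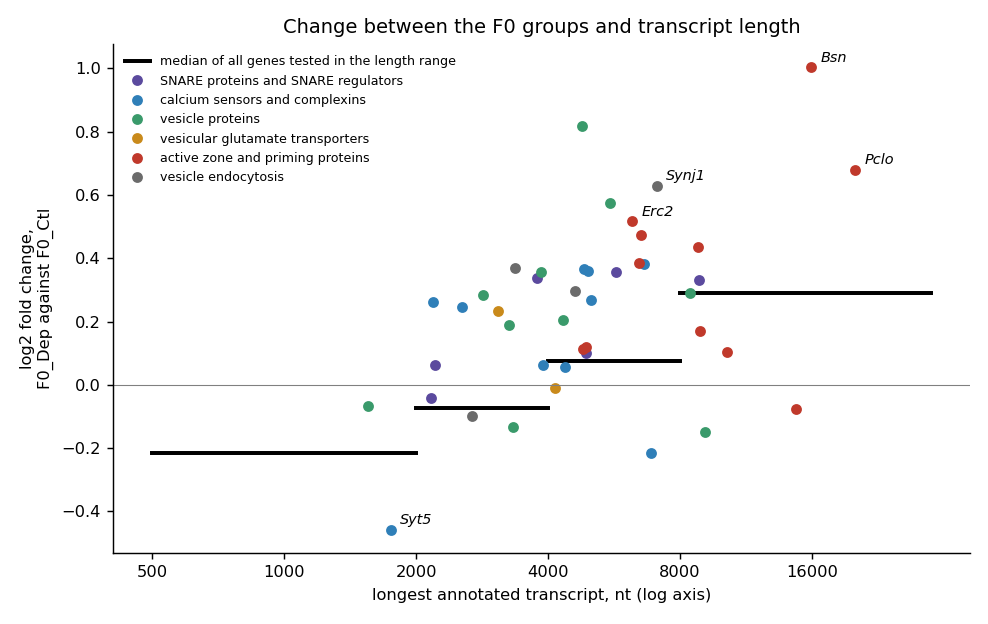
Log2 fold change between the F0 groups against the longest annotated transcript of each member (log axis), coloured by role; black lines are the median of all genes tested in each length range, rising from -0.21 to 0.29. Bsn, Pclo, Synj1 and Erc2 lie above the line of their range, and Syt5, at 1750 nt, lies below it.

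Other tests made more calls in most comparisons, over all genes and over the members. DESeq2 called 8 members between the F0 groups (7.9% of all genes), 1 between the offspring groups (3.68%), 4 for F1_Dep against F0_Ctl (2.53%), 10 between F1_Dep and F0_Dep (9.48%), 0 for F1_Ctl against F0_Ctl (0%) and 5 in the interaction (3.02%). limma's voom with a weight for each library called 4 (2.61%), 2 (12%), 0 (0.124%), 19 (29.1%), 0 (0%) and 7 (3.24%) in the same order. limma on log2(FPKM + 1) called 10 members between the F0 groups (19.2% of all genes), 0 for F1_Dep against F0_Ctl (0.159%) and 6 between F1_Dep and F0_Dep (10.7%). In the F0 comparison the members called by DESeq2 were Synj1, Bsn, Pclo, Erc2, Sv2b, Cplx2 and Syt1, all higher, and Syt5, lower.

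A wider list of 82 other presynaptic genes, such as further synaptotagmins, SNAREs, endocytic adaptors and calcium channel subunits, was read from the same fits. In F0_Dep 57 of 82 were higher than in F0_Ctl, with a median of 0.13, where 45.4% of all genes were higher. None was called (0.495% of all genes were), and 26 had an unadjusted p under 0.05, 22 of them higher, against 19.7% of all genes. In other comparisons 2 of its genes passed. Between the offspring groups it was 1 gene, where 0.167% of all genes passed, and between F1_Dep and F0_Dep 2 genes, where 2.88% did. Synpr (synaptoporin), a synaptophysin relative of mossy fibre terminals, fell in F1_Dep: it was at 50.5, 85.4 and 68.0 CPM there, against 158, 178 and 179 CPM in F1_Ctl, 146, 127 and 145 CPM in F0_Dep and 160, 127 and 129 CPM in F0_Ctl. The fall was -1.34 ± 0.16 against F1_Ctl (adjusted p = 0.0308) and -1.03 ± 0.16 against F0_Dep (adjusted p = 0.0207). Synj2, the relative of Synj1, rose in F1_Dep against F0_Dep by 0.58 ± 0.13 (adjusted p = 0.0398), from 68.1, 76.8 and 65.2 CPM to 103, 99.5 and 113 CPM. Synpr was lowest in F1_Dep 1, where the granule cell markers were also lowest, and their part in its change was not tested.

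The 25 members not given with all their values differed between the F0 groups by -0.46 to 0.82 (17 of 25 higher) and between the offspring groups by -0.69 to 0.90 (15 of 25 higher). Of all 43 genes, 34 overlap another annotated gene, 16 of them on the same strand, and the sources used here do not say whether the deposited counts used strand, so reads from such neighbours cannot be told apart.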

How the data were processed

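Hippocampal RNA of 12 mice was sequenced with a TruSeq stranded mRNA kit, per the labels' protocols. The submitters' processing notes name HISAT2, Cufflinks 2.2.1 and build mm10. The deposited table holds estimated counts per gene, 27.2% of its values fractional, which were rounded here; its counting tool and strand setting were not stated in the sources available here. FPKM values per gene, for 9 libraries, are the authors' own deposited files. Rows without a gene symbol (610 IDs, 0.579% of counts) were kept under their ID, and 37 IDs that repeat a symbol were summed. No per-sample column was left unused (0).

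Groups came from the labels. edgeR 4.0.16 (R 4.3.3; filterByExpr, TMM scaling, quasi-likelihood test, all 4 groups in 1 fit) gave changes and Benjamini-Hochberg adjusted p-values over all 16163 genes; an adjusted p under 0.05 is a call. DESeq2 1.42.0, limma 3.58.1 voom with library weights, and limma on log2(FPKM + 1), with at least 1 FPKM in 3 libraries, were alternatives. Scripts were tested on simulated data. Values per library are given for members called in any of 6 comparisons, for the 3 members with the smallest p in each and for the highest FPKM of each role; members given in addition were chosen after their values were seen. The members and lists were chosen with earlier results of these data known. Library totals were 18277208 to 23083678 counts. Errors of CPM and FPKM means are the SD of 3 mice. Those of log2 fold changes are standard errors of the edgeR fit, whose spread is estimated over all 4 groups.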

Additional observations from a re-analysis of the deposited data

How the results depend on the processing

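Over the 18 gene and comparison pairs followed under every alternative, no change reversed: of 420 values, 346 kept their side of the threshold, 66 passed it only under the alternative, and 8, all of Ppfia2 between F1_Dep and F0_Dep, no longer passed it. Over all 258 pairs of a member and a comparison, called or not, 94 had both signs among the settings run, among them Doc2b, Syt2, Unc13a and Ppfia2 between the F0 groups. Of 280 medians and counts, 228 kept their value within the spread or 1.5 times. The median change of the members over 12 omissions of 1 library was 0.230 to 0.310 between the F0 groups, 0.009 to 0.136 between the offspring groups, 0.060 to 0.158 for F1_Dep against F0_Ctl, -0.133 to -0.095 for F1_Dep against F0_Dep, -0.034 to 0.148 for F1_Ctl against F0_Ctl and -0.251 to -0.053 for the interaction, where F1_Ctl 2 sets the last value. The members called were 0 to 4 between the F0 groups, 0 to 8 between F1_Dep and F0_Dep, 0 to 3 in the interaction and 0 in the other comparisons; omitting F1_Ctl 3 gave the highest counts. Between the F0 groups, 8 members were called by DESeq2 (7.9% of all genes), 4 by voom (2.61%), 1 with RLE scaling and 3 without a filter. By FPKM they were 10 with a pseudocount of 1 (19.2%), 7 with 0.1 and 5 without a filter. Between F1_Dep and F0_Dep these were 10 by DESeq2 (9.48%), 19 by voom (29.1%), 2 without a filter and 20 with the compared groups alone. By FPKM they were 6 (10.7%), 5 and 4, with medians of -0.061, -0.062 and -0.061. Counts without a share beside them lack the count over all genes for the same setting, so they cannot be judged against it. Calls over all genes moved with the setting too. Over all alternatives they ran from 5 to 2660 between the F0 groups, from 8 to 4703 between F1_Dep and F0_Dep and from 0 to 535 in the interaction. The counts of members alone are therefore not a result about the members. DESeq2 called 4 for F1_Dep against F0_Ctl, 1 between the offspring groups and 5 in the interaction; voom called 2 and 7 in the last 2, with a median of -0.304 in the interaction. Without F0_Ctl 3, F1_Ctl 3 and F1_Dep 1, the counts were 13 between the F0 groups, 1 for F1_Dep against F0_Ctl and 8 between F1_Dep and F0_Dep. They were 1 between the offspring groups and 10 in the interaction. In the same order 512, 629, 1347, 338 and 487 of all genes passed. The medians were -0.106 between the offspring groups, 0.233 for F1_Ctl against F0_Ctl and -0.344 for the interaction. There were 2 alternatives added after seeing the data. Removal of the length trend left 0 members and 473 of all genes called between F1_Dep and F0_Dep. Leaving out F0_Ctl 1 and F1_Ctl 3 gave 3 members between the F0 groups, 9 between F1_Dep and F0_Dep and 6 in the interaction (199, 1712 and 535 of all genes). The cause of these differences was not tested. With the replicate number as a replicate block, 0 members and 177 of all genes were called between F1_Dep and F0_Dep, and the adjusted p of Ppfia2 was 0.0592 (change -0.72). Deviations of same-numbered mice from their group means correlated at -0.18 to 0.50 over 18 pairs (median -0.01). Over 36 pairs with different numbers they correlated at -0.50 to 0.43 (median 0.01). This cannot decide whether the numbers pair the mice, because differences in marker content between libraries enter the same values. Values by FPKM could not be had for comparisons with F1_Ctl, nor an interaction from the compared groups alone. With 3 mice a group, changes smaller than the spread between mice were not detectable. FPKM values alone carry no depth.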
